A study of Xenopus tropicalis with 12 samples.

Results

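A set of 62 genes, out of 19921 counted in the tadpole intestine of *Xenopus tropicalis*, reached their highest read counts in 1 of 4 groups, TRDKO tadpoles at stage 61. TRDKO tadpoles lack both thyroid hormone receptors, with genotype TRα-/- TRβ-/-, and the wild-type tadpoles were TRα+/+ TRβ+/+. The intestine was sampled in both genotypes at stage 54, before metamorphosis, and at stage 61, the climax of metamorphosis, with 3 libraries per group and 12 in all. No hormone or other agent was named for these samples, and all 4 groups were untreated as far as the labels state. The deletions were inherited through the germ line and were not restricted to the intestine. The study used knockout lines with different deletions in TRβ, and which of them gave the sequenced RNA was not stated. TRDKO tadpoles stalled at the climax, so the groups at stage 61 were matched by stage and not by age.

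Thyroid hormone (T3) drives anuran metamorphosis through TRα and TRβ, which bind DNA at their target genes. Without hormone the receptors repress many of these genes, and with hormone they activate them, so that loss of receptor can both release genes early and prevent their later activation. In the intestine, this hormone drives the death of the larval epithelium, the appearance of adult stem cells and the growth of connective tissue and muscle.

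The members were chosen from the data themselves. Reads per gene were divided by a size factor for each library, the median ratio to the average library over the 12983 genes with reads in all 12. A member had a mean normalised read count of at least 50 in TRDKO tadpoles at stage 61, a mean there at least 4 times that of each other group, and in wild-type tadpoles a mean at stage 61 above that at stage 54 divided by 2. The height of the stage 61 TRDKO group over the others is therefore the criterion and not a finding, and it was not tested. The comparison of the genotypes at stage 54 was tested, since the rule limited both groups there from above by the same fold of 4 to the stage 61 TRDKO level. The wild-type group of stage 54 alone had a further upper limit, 2 times the wild-type mean of stage 61, so the rule was not even between the genotypes and could favour members higher in TRDKO tadpoles. The fold of 4 over wild-type at stage 61 could also favour genes that were higher in TRDKO tadpoles at both stages. In the wild-type comparison of stages, the rule barred falls of 2-fold or more, so only rises were open to the test.

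The deposited counts list Ensembl IDs without gene names, and 0 of the 62 IDs matched the RefSeq gene table at hand. Members are therefore given by ID only, and nothing is said of their function, sequence or position. For the same reason neither the loss of TRα and TRβ nor markers of intestinal cell types could be examined in the libraries. In RNA from whole intestine, more cells of a type and more RNA per cell cannot be told apart.

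Total counts ranged from 20112705 to 37936503 per library. A gene with 0 reads in a library was given a limit of 3 counts, about the upper 95% limit of counting error. These 3 counts came to between 1.57 and 5.87 normalised counts. TRDKO stage 54 replicate 3 stood apart from the other 2 libraries of its group, so results that rest on it are given with and without it. The study called the RNA samples of a group biological replicates. Apart from that library, their counts differed by little more than sampling noise, with a median chi-square over tested genes of 1.20 to 1.62 times its expected value, against 13.7 in TRDKO stage 54 with replicate 3. For RNA used in PCR the study pooled tissue of several animals of a genotype, and whether the sequenced RNA was pooled in the same way is not stated. The p-values measure only the spread between these samples.

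Among the 62 members, the stage 61 TRDKO mean ran from 50.1 to 174280 normalised counts, with a median of 163 and quartiles of 84.4 and 950. In 15 members it was at least 1000, and in 42 at least 100. Counts were not scaled by transcript length, so these levels do not rank the genes by transcript number. The ratio of this mean to the next-highest group had a median of 7.57 and quartiles of 4.96 and 12.7. It was at least 10 in 22 members. The next-highest group was TRDKO at stage 54 in 42 members and wild-type at stage 61 in 18. It was wild-type at stage 54 in 2, ENSXETG00000012655 and ENSXETG00000010655, which are named here after their values were seen. The wild-type condition of the rule limited wild-type stage 54 alone and could lower this last number. These numbers are given without a share over other genes.

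**Figure D1:**
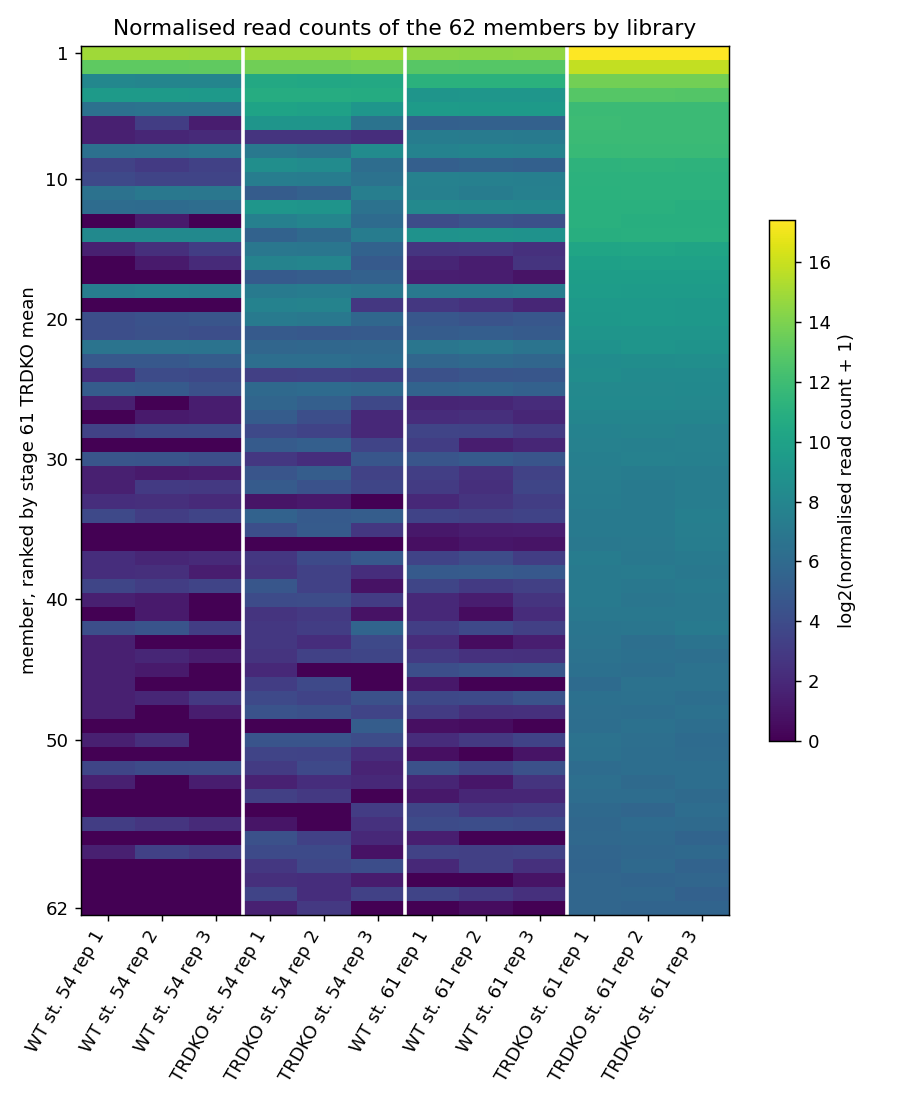
Normalised read counts of the 62 members (rows, ranked by the stage 61 TRDKO mean) in the 12 libraries (columns), as log2(normalised count + 1) by colour, with white lines between groups. The 3 stage 61 TRDKO libraries on the right are the brightest in every row, the 3 wild-type stage 54 libraries on the left are at 0 in 14 rows, and replicate 3 of TRDKO stage 54 differs from replicates 1 and 2 in many rows.

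Over the 3 stage 61 TRDKO libraries, the members had a median coefficient of variation of 5.73% (n = 3 libraries per gene, range over genes 0.239 to 19.5%), against 3.95% for the 11249 tested genes with a mean of at least 50 there. These sets were not matched by level. Against sampling noise, the median chi-square in this group was 1.30 times its expected value over the members and 1.22 times over tested genes. Every one of these libraries lay above every other library in 62 of 62 members, against 13.9% of the 13954 genes tested, a separation that the choice of members fixes almost entirely. Near the limits, the 2 lowest members by level had stage 61 TRDKO means of 50.06 and 50.21, and the 2 nearest genes below had 47.4 and 47.1. By fold, the 2 lowest members stood 4.02 and 4.07 times above the next group, and the nearest genes outside 3.96 and 3.94 times. By the wild-type condition, the 2 lowest members had a stage 61 to stage 54 ratio of 0.621 and 0.646, and the nearest genes outside 0.491 and 0.454. In all, 10 genes met every condition but this last one, and 81 met every condition but the level.

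ENSXETG00000008836 had the highest stage 61 TRDKO mean. At stage 54 its normalised counts were 31209, 30837 and 30413 in wild-type animals, and 30075, 30307 and 35795 in TRDKO animals. At stage 61 they were 23533, 23033 and 23664 in wild-type and 174085, 172545 and 176210 in TRDKO tadpoles. It was therefore abundantly counted in all 12 libraries, and the 9 other libraries lay between 23033 and 35795, far below the 3 stage 61 TRDKO libraries.

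ENSXETG00000018097 was second. Its counts were 8874, 8631 and 9060 in wild-type and 12852, 12979 and 14388 in TRDKO tadpoles at stage 54. At stage 61 they were 7597, 7145 and 7390 in wild-type and 58490, 58153 and 57735 in TRDKO tadpoles. No 2 groups overlapped for this gene.

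Together the 62 members took 1.04% ± 0.00842 of all counts in TRDKO tadpoles at stage 61 (SD, n = 3). Their share at stage 54 was 0.188% ± 0.00481 in TRDKO and 0.0998% ± 0.00101 in wild-type animals, while in wild-type animals of stage 61 it was 0.207% ± 0.00200 (SD, n = 3 each). Most of this share came from the 2 genes above. The other 60 members took 0.214% at stage 61 in TRDKO tadpoles, 0.0256% in TRDKO animals of stage 54, 0.00523% in wild-type animals of stage 54 and 0.0331% in wild-type animals of stage 61. These are shares of each library's own total and are not corrected for how the total was made up, which differed between groups.

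The members were nearly silent in wild-type intestine before metamorphosis more often than elsewhere. In wild-type tadpoles at stage 54, 14 members had 0 counts in all 3 libraries and 32 had at most 3 counts in each. In TRDKO tadpoles at stage 54 these numbers were 1 and 3, and in wild-type animals of stage 61 they were 0 and 9. The libraries differed in depth and size factor, so that 3 counts came to 4.05 to 5.87 normalised counts in the wild-type libraries of stage 54 and to 1.57 to 2.65 in those of stage 61. The rule also set an extra upper limit on wild-type stage 54 alone. These numbers are given without a share over all genes, so they do not show that near-silence is particular to the members. Normalised counts of the members had a median group mean of 3.46 in wild-type and 18.0 in TRDKO tadpoles at stage 54, against 9.46 in wild-type tadpoles at stage 61. A single member had at most 3 counts in each of the 9 libraries outside TRDKO stage 61.

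That member, ENSXETG00000024904, is named here after its values were seen. No read of it was counted in the 6 libraries of stage 54, and the wild-type libraries of stage 61 held 1, 2 and 1. In TRDKO tadpoles at stage 61 it had 166, 119 and 167 counts, or 128, 130 and 164 after normalisation.

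**Figure D2:**
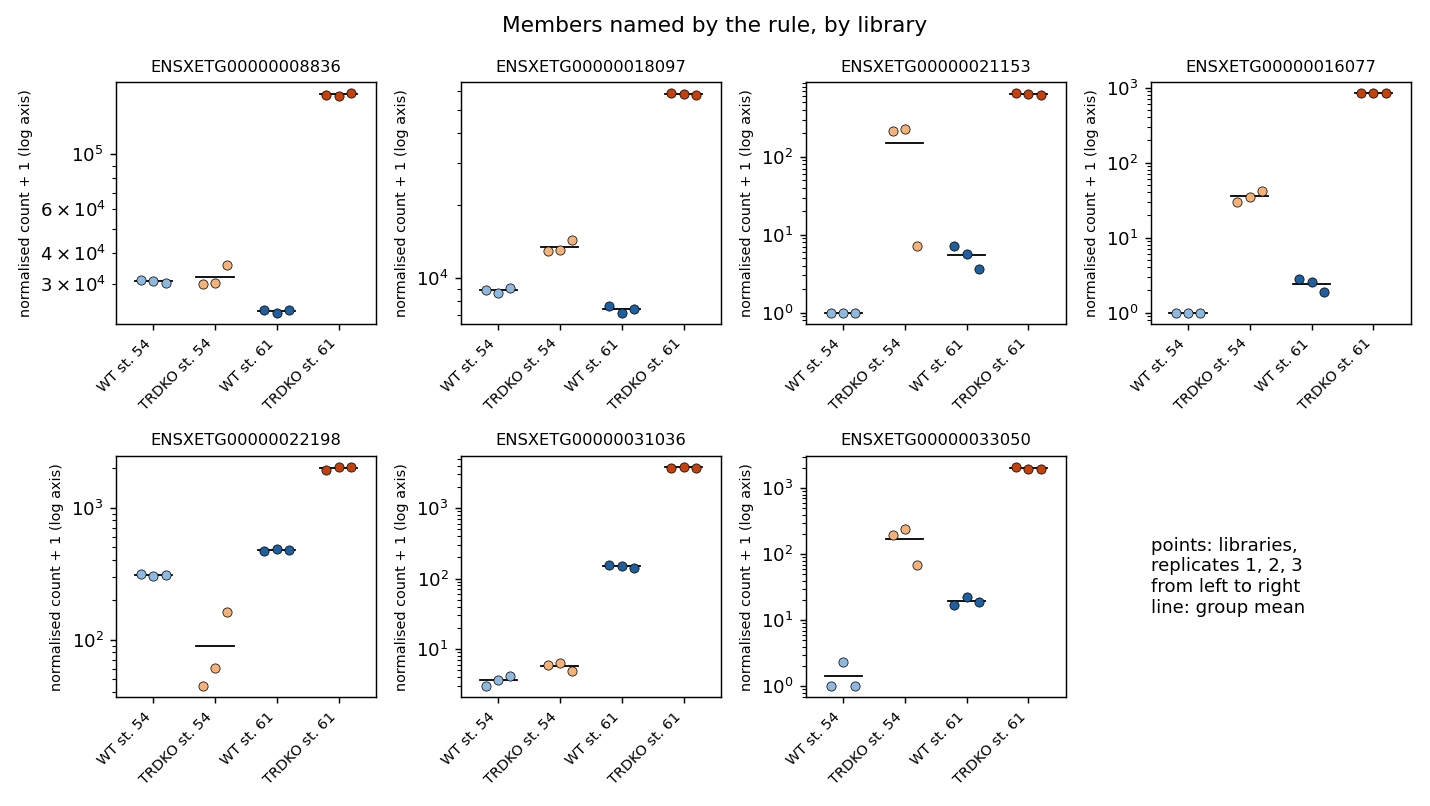
Normalised read count plus 1 (log axis, a different range in each panel) in the 12 libraries for the 7 members named by rule: the 2 with the highest stage 61 TRDKO mean, then those with the largest called changes at stage 54 and between the wild-type stages. Points are libraries and lines are group means. The stage 61 TRDKO points lie close together and above all others in each panel, and replicate 3 of TRDKO stage 54 lies far from the other points of its group for ENSXETG00000021153 and ENSXETG00000022198.

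The comparison of TRDKO with wild-type tadpoles at stage 54 asks what loss of the receptors did to the members before metamorphosis. Calls rest on edgeR's quasi-likelihood test over 12 libraries, and required a p under 0.05 after Benjamini-Hochberg adjustment over all tested genes and a change of more than 2-fold. Of the 62 members, 36 were upregulated in TRDKO tadpoles at stage 54, or 58.1%, against 21.7% of all genes tested. Downregulated were 2 members, against 12% of all genes tested, and 24 were not called. The tested genes were not matched to the rule, and how far the rule itself moved these shares was not tested. The median log2 fold change was 2.42 over the members and 0.12 over all tested genes. It was 1.57 over the 44 members that passed the filter on low counts without the stage 61 TRDKO libraries. With genes at 0 in all libraries of a group set to the limit that 3 counts per library allow, the members' median was 1.26. Without the wild-type condition, the rule found 72 genes, of which 38 were upregulated and 2 downregulated, a setting added after the data were seen.

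Not all of these calls are independent of the stage 61 TRDKO libraries. All 62 members passed the filter on low counts with 12 libraries, but only 44 passed without the stage 61 TRDKO libraries, so 18 were tested only through the group in which they were chosen to be high. In a fit on the other 9 libraries, 26 of those 44 members were upregulated, against 20.9% of all genes in that fit, and 1 was downregulated, against 11.9%. Every TRDKO library lay above every wild-type library at stage 54 in 38 of the 62 members, against 34.9% of all tested genes. Among the 36 upregulated members this held for 34, or 94.4%, against 91.4% of all upregulated genes. Of the 36, 10 had 0 counts in all 3 wild-type libraries, a number given without a share over all upregulated genes.

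ENSXETG00000021153 had the largest fitted rise. It had 0 counts in all wild-type libraries at stage 54. Its normalised counts in TRDKO tadpoles at stage 54 were 212, 226 and 6.10, and those at stage 61 were 6.07, 4.71 and 2.65 in wild-type and 655, 647 and 617 in TRDKO tadpoles. Replicate 3 of TRDKO stage 54 was thus close to the wild-type libraries of stage 61, and the other 2 lay far above both. The TRDKO mean at stage 54 was at least 30.3-fold higher than the limit in wild-type (adjusted p = 0.00459, edgeR), but it is among the 18 members tested only through the stage 61 TRDKO libraries, and it has no value in the fit on 9 libraries. Without replicate 3, this gene was no longer a member, since its stage 61 TRDKO mean was then only 2.92 times the stage 54 TRDKO mean.

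ENSXETG00000016077 had an even level within each group. It also had 0 counts in all wild-type libraries at stage 54, and its normalised counts in TRDKO tadpoles at stage 54 were 29.1, 34.1 and 41.2. At stage 61 it had 1.82, 1.57 and 0.883 in wild-type and 838, 840 and 836 in TRDKO tadpoles. The TRDKO libraries of stage 54 lay above all 6 wild-type libraries. Their mean was at least 7.12-fold higher than the limit in wild-type at stage 54 (adjusted p = 7.06e-07, edgeR).

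ENSXETG00000022198 went the other way and was downregulated in TRDKO tadpoles at stage 54. Its normalised counts were 313, 301 and 309 in wild-type and 43.2, 60.3 and 162 in TRDKO tadpoles at stage 54. At stage 61 they were 471, 487 and 474 in wild-type and 1943, 2016 and 2029 in TRDKO tadpoles. This gene was thus below wild-type in every TRDKO library at stage 54 and above it in every one at stage 61. The log2 fold change at stage 54 was -1.72 (standard error 0.34, adjusted p = 0.000893, edgeR), and without replicate 3 it was -2.58 (standard error 0.13).

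The other downregulated member was ENSXETG00000034109, which was named after its values were seen and is also among the 18 tested only through the stage 61 TRDKO libraries. At stage 54 its counts were 2, 3 and 2 in wild-type and 1, 1 and 0 in TRDKO tadpoles, none above 3. The fitted change was -2.29 on the log2 scale (standard error 0.75, edgeR adjusted p = 0.0247), and it was not called without replicate 3 of TRDKO stage 54 (adjusted p = 0.147) and without replicate 2 of wild-type stage 54 (adjusted p = 0.0700). At stage 61 it had normalised counts of 3.03, 5.24 and 7.94 in wild-type and 156, 143 and 167 in TRDKO tadpoles.

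The 2 genes with the highest counts changed little between the genotypes at stage 54. ENSXETG00000018097 was higher in TRDKO tadpoles by 0.62 on the log2 scale (standard error 0.05, edgeR adjusted p = 1.6e-06), under the 2-fold limit. For ENSXETG00000008836 the log2 difference was 0.08 (standard error 0.06, edgeR adjusted p = 0.291), and it did not pass.

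**Figure D3:**
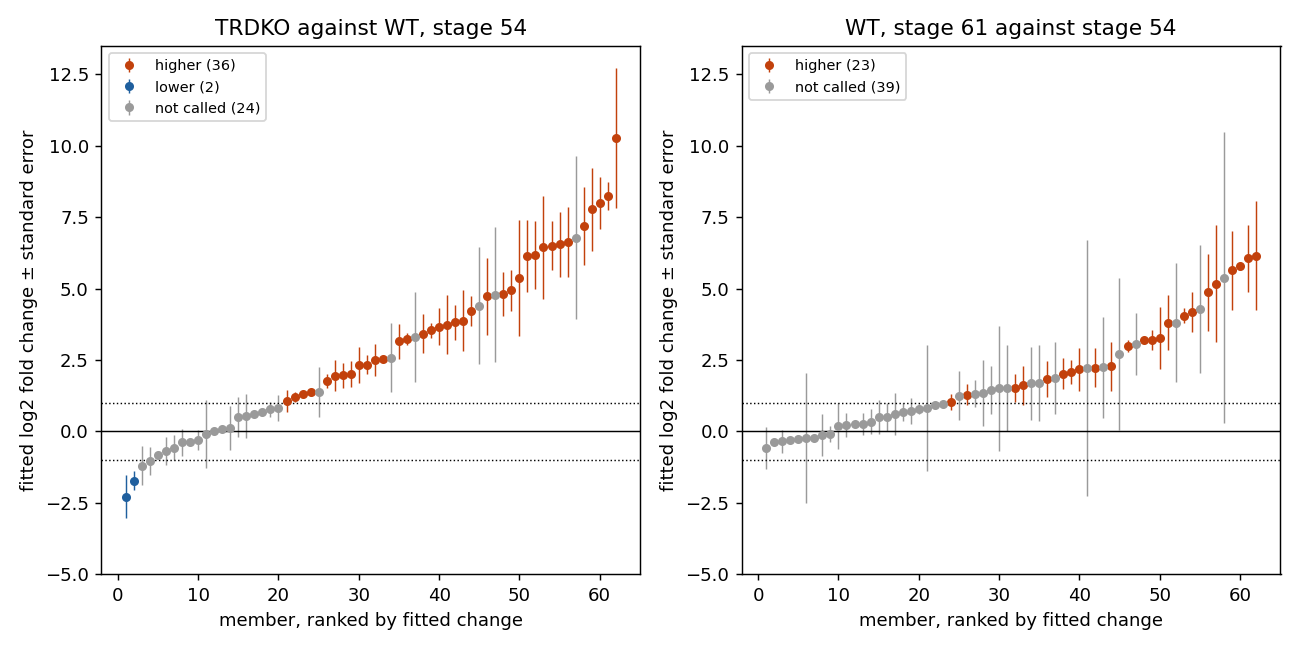
Fitted log2 fold change with its standard error for each member, ranked within each panel, for TRDKO against wild-type at stage 54 (left) and wild-type stage 61 against stage 54 (right). The standard errors come from the test's F statistic and can be too small for genes with few counts. Red points are called higher, blue points lower and grey points not called, dotted lines mark 2-fold, and the fitted values of genes at 0 in a group depend on the fit's prior count. The left panel holds 36 higher and 2 lower calls, and the right panel 23 higher calls, with the lowest member at -0.57.

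The spread in TRDKO tadpoles at stage 54 was uneven among the members. Replicate 3 lay more than 2-fold below the mean of replicates 1 and 2 in 26 members, or 41.9%, against 10.1% of all tested genes, on the scale of normalised count plus 1. The rule limited the mean of this group from above, and a low replicate 3 lowers that mean. The choice of members could therefore favour genes with a low replicate 3, and how far it did was not tested. It lay more than 2-fold above in 10 members, against 7.35% of all tested genes. The median log2 ratio of replicate 3 to the other 2 was -0.76 over the members and 0.01 over all tested genes. With a mean of at least 10 in the group, 16 of 41 members lay more than 2-fold below, or 39.0%, against 9.48% of 12814 tested genes. Replicates 1 and 2 were within 2-fold of each other in 56 of the 62 members. In each of the other 11 libraries, at most 10 members lay more than 2-fold below and at most 6 more than 2-fold above the rest of the group, and in the stage 61 TRDKO libraries none did. TRDKO stage 54 replicates 1 and 2 lay below in 12.9% and 16.1% of members, against 3.37% and 3.91% of all tested genes. They lay above in 8.06% and 9.68% of members, against 1.68% and 1.52%. Replicates 1 and 2 were each compared with a mean that held replicate 3. These shares therefore cannot show whether the larger share among the members was particular to replicate 3.

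**Figure D4:**
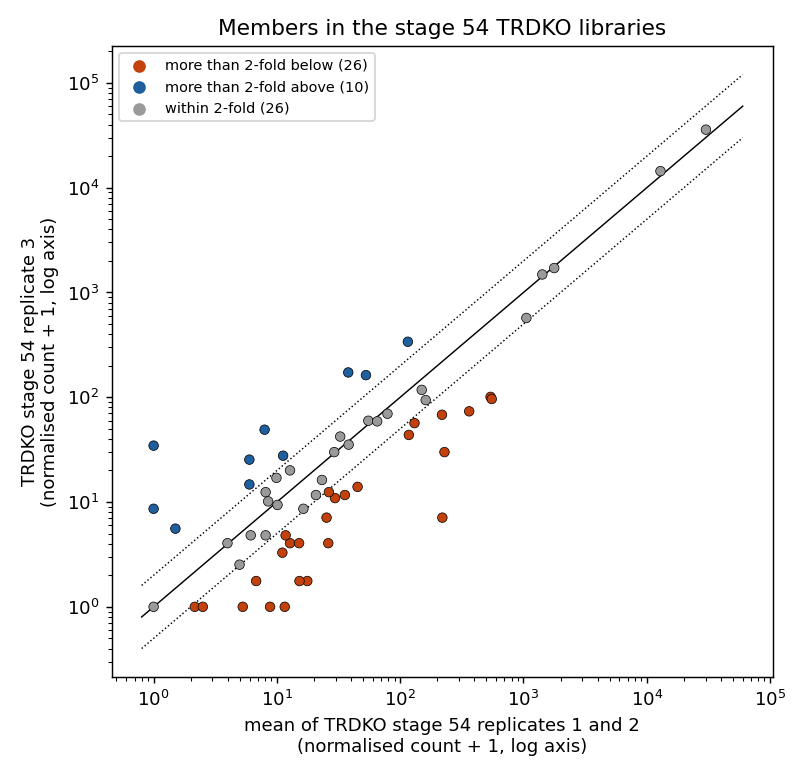
Each member's normalised count plus 1 in replicate 3 of TRDKO stage 54 (vertical) against the mean of replicates 1 and 2 (horizontal), both on log axes, with the line of equality and dotted lines at 2-fold. The 26 red points lie more than 2-fold below, the 10 blue points more than 2-fold above and the 26 grey points within 2-fold, and the 2 most highly counted members lie near the line.

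This library bears on the stage 54 result in both directions. Among the 36 upregulated members, 17 had replicate 3 more than 2-fold below the other 2, a number given without a share over all upregulated genes. Of the 26 members with a low replicate 3, 16 still had it above every wild-type library at stage 54, or 61.5%, against 30.5% of all tested genes with a low replicate 3. Without replicate 3, the test called 39 members upregulated, 35 of them among the 36, against 21.5% of all genes in that fit. It then called 5 downregulated, against 12.5%, of which only ENSXETG00000022198 was called with all libraries. The other 4 were ENSXETG00000031223, ENSXETG00000026964, ENSXETG00000009627 and ENSXETG00000027271, named after their values were seen. ENSXETG00000031223, for example, had at stage 54 normalised counts of 93.9, 124 and 122 in wild-type and of 33.1, 40.7 and 171 in TRDKO tadpoles, so that replicate 3 alone lay above the wild-type libraries. What set this library apart was not tested.

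The set of members itself also moved with this library. Without replicate 3 the rule found 58 genes, 52 of them among the 62, so that 10 members were lost and 6 genes gained. With any other single library left out, between 55 and 62 of the members were kept. An opposite case is ENSXETG00000015899, named after its values were seen, with 0, 0 and 44 counts in the 3 TRDKO libraries of stage 54 and 0 in all wild-type libraries of that stage. Its normalised counts in TRDKO tadpoles at stage 61 were 79.4, 88.5 and 79.5.

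The comparison of wild-type stage 61 with stage 54 asks what the members did during natural metamorphosis. Here 23 members were upregulated, or 37.1%, against 30.4% of all genes (edgeR, calls as above). Among the 10804 tested genes that met the same wild-type condition as the members, 39.3% were upregulated, so the members' share was near the background. Of the 23, 5 had 0 counts in all wild-type libraries of stage 54, given without a share over all upregulated genes. Among these, ENSXETG00000016077 and ENSXETG00000025157 had wild-type means of 1.42 and 4.04 at stage 61, below the limit of 4.88 at stage 54. The rest lay at least 1.12- to 1.66-fold above that limit, so for these genes a 2-fold rise is not shown by the counts alone. No member was called downregulated, against 21.2% of all genes tested, which the rule itself barred. At an adjusted p under 0.05 by edgeR, 3 members were lower by less than 2-fold. DESeq2 also called 0 downregulated, under the same bar of the rule. The median log2 fold change was 1.53 over the members, or 0.69 with genes at 0 set to their limit, and 0.60 over the genes that met the same condition. Over the 44 members that passed the filter without the stage 61 TRDKO libraries, it was 1.15. In the fit on the 9 libraries without TRDKO stage 61, 20 of the 44 members tested were upregulated, or 45.5%, against 30.2% of all genes and 39% of those that met the condition. This comparison and that of the genotypes share the wild-type libraries of stage 54, so their calls are not independent of each other.

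ENSXETG00000031036 rose clearly in wild-type intestine and stayed low in TRDKO tadpoles at stage 54. The wild-type libraries of stage 54 held 1, 2 and 2 reads of it. Its normalised counts at stage 61 were 155, 148 and 140 in wild-type and 3756, 3815 and 3750 in TRDKO tadpoles, and those in TRDKO tadpoles at stage 54 were 5.02, 5.25 and 3.81. The wild-type log2 fold change was 5.78 (adjusted p = 2.31e-11, edgeR), and the counting ratio was 56.1 with a 95% exact interval of 23.9 to 173. DESeq2 fitted 5.81 with a standard error of 0.65. The genotypes at stage 54 did not pass the test (log2 fold change 0.78, adjusted p = 0.316, edgeR).

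ENSXETG00000033050 rose in both comparisons. The wild-type libraries held 0, 1 and 0 reads of it at stage 54 and 26, 41 and 20 at stage 61, or 15.8, 21.5 and 17.7 after normalisation. In TRDKO tadpoles its normalised counts were 192, 243 and 67.1 at stage 54 and 2094, 1984 and 1933 at stage 61. The counting ratio between the wild-type stages was 35.0 with a 95% exact interval of 6.12 to 1397 (adjusted p = 0.00597, edgeR), since a single read stood for stage 54. Without the library that held this read, replicate 2, the fitted log2 fold change went from 4.88 to 7.37. Between the genotypes at stage 54 it was called higher as well (adjusted p = 1.41e-05, edgeR).

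The 3 members that were lower in wild-type tadpoles at stage 61 at an adjusted p under 0.05 by edgeR included the 2 most highly counted. Other members had a lower fitted value that did not pass, down to -0.57 on the log2 scale. The log2 fold change was -0.36 (standard error 0.06, adjusted p = 0.000265, edgeR) for ENSXETG00000008836 and -0.22 (standard error 0.05, adjusted p = 0.00225, edgeR) for ENSXETG00000018097, and it was -0.31 for ENSXETG00000015966, which was named after its values were seen. For the first 2 genes, scaling by library size alone turned the values to 0.85 and 0.98, under a shift of the median of all tested genes from 0.13 to 1.33. Their direction in wild-type intestine thus depended on the scaling. Their stage 61 TRDKO counts were above every other library under each scaling tried, which the choice of members fixes almost entirely.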

How the data were processed

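Whole intestine RNA was poly-A selected and made into libraries with a stranded kit by the authors, who mapped reads with STAR (2.6.1c) to the *Xenopus tropicalis* JGI 4.2 genome with Ensembl annotation and counted them per gene with featureCounts (1.6.3), per the study's methods. The authors deposited these raw read counts with no normalisation. The strand setting and the handling of reads shared by several genes are not given in the sources used here, so counts of overlapping or near-identical genes are uncertain. Intervals and limits cover counting error only.

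Groups came from the sample titles. Median-of-ratios size factors gave the normalised counts and the members. Members and lists were chosen with earlier results of these data known. In edgeR (4.0.16, R 4.3.3), filterByExpr kept 13954 genes, libraries were scaled by TMM, and 1 quasi-likelihood model with a mean per group was fitted to all 12 libraries and tested on simulated data. A change was called at an adjusted p under 0.05 and more than 2-fold. Standard errors from edgeR are the size of the fitted change divided by the square root of the test's F statistic. They can be too small for genes with few counts. The named genes are the 2 members with the highest stage 61 TRDKO mean and, per comparison, the 2 largest called rises and falls with a mean of at least 10 in the higher group and no overlap of libraries. Each exception is stated where it occurs. The alternatives were other scalings, filters and rule limits, DESeq2 (1.42.0), fits on fewer libraries, a replicate block and each library left out. Lists of pathway and cell type genes had been planned by symbol and could not be run without gene names.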

Additional observations from a re-analysis of the deposited data

How the results depend on the processing

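The rule found 102 genes with a fold limit of 3 and 38 with a limit of 6, and 56 to 66 with each library left out in turn. Membership also moved with the scaling. By library size alone the rule found 55 genes, 49 of them among the 62, and with TMM-scaled library sizes 62 genes, 61 of them among the 62. With each library left out, all 62 members stayed above every other library. Their separation with all 12 libraries fixes this almost entirely, so it is no test of the members. At stage 54, the 36 upregulated members were 34 to 39 and the 2 downregulated 1 to 5 (35 to 44 together) with each library left out. Of all genes in those fits, 2948 to 3098 were upregulated and 1633 to 1768 downregulated. On the 6 libraries of that comparison, only 29 members passed the filter, and 20 were called, 19 up and 1 down. Of the 12546 genes in that fit, 2373 were upregulated and 1571 downregulated. The downregulated were 1 by library size alone, by glmTreat, on 9 libraries and by DESeq2, and 4 with no fold threshold. Of all genes, 591 of 13954, 990 of 13954, 1644 of 13776 and 1792 of 17002 were downregulated in the first 4 settings. With no fold threshold, 4436 of 13954 were. By library size alone, 43 members were upregulated at stage 54, against 5158 of 13954 genes. Between the wild-type stages, the 23 upregulated members were 17 to 26 with each library left out, 44 by library size alone, 15 on the 6 libraries (33 members tested) and 13 by glmTreat, and with no fold threshold 3 were downregulated. Of all tested genes, 8110 of 13954 were upregulated by library size alone and 3591 of 13954 by glmTreat. With each library left out, 3961 to 4461 of all genes in the fit were upregulated. On the 6 libraries 4267 of 13609 were upregulated, and with no fold threshold 5220 of 13954 were downregulated. Except where the alternative tested fewer genes or used another threshold, the cause was not tested. By library size alone the stage 54 median of all tested genes moved from 0.12 to 0.69.

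Of 178 fitted changes of named genes under alternatives, 174 kept direction and call. ENSXETG00000008836 turned to -0.0090 at stage 54 without replicate 3 of TRDKO (-0.0090 to 0.13 with each library left out) and to 0.85 between the wild-type stages by library size alone. ENSXETG00000018097 turned to 0.98 between the wild-type stages and passed the fold limit at stage 54 (1.18), both by library size alone.

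Deviations of libraries with the same replicate number correlated at -0.027 to 0.016, and those with different numbers at -0.037 to 0.031. The numbers thus showed no pairing of the samples. As most libraries differed within a group by little more than sampling noise, this check could hardly detect one. With the replicate block, 36 members were called at stage 54, 34 up and 2 down, and 21 between the wild-type stages, all up. Of the 13954 genes tested, 2936 were then up and 1696 down at stage 54, and 4237 were up between the wild-type stages. Depth limits the members with few counts: 3 counts per library bound what could be seen in the 14 members at 0 in wild-type tadpoles at stage 54.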

Other observations

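Of the 62 members, 3 pairs stood in adjacent rows of the deposited counts: ENSXETG00000003472 with ENSXETG00000018322, ENSXETG00000033050 with ENSXETG00000025157, and ENSXETG00000026902 with ENSXETG00000015596. They are named after their values were seen, what the row order means is not given in the sources used here, and reads shared between overlapping or near-identical genes were not tested. ENSXETG00000026902 had normalised counts of 218, 237 and 29 and ENSXETG00000015596 of 122, 111 and 42.7 in TRDKO tadpoles at stage 54. At stage 61 in TRDKO tadpoles they had 967, 991 and 1006 and 1209, 1279 and 1162. In both genes replicate 3 of TRDKO stage 54 was the lowest of its group, as it was in ENSXETG00000033050, in ENSXETG00000025157, with 31.1, 38 and 10.7, and in ENSXETG00000003472, with 8.04, 13.1 and 0. In ENSXETG00000018322, with 44.2, 30.2 and 34.3, replicate 2 was the lowest.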
